A study of Homo sapiens with 47 samples.

Results

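The enzymes that write, copy and remove DNA methylation were followed in human embryonic stem cells (hESCs) as they became neuromesodermal progenitor (NMP)-like cells and then long-term cultures of pre-neural progenitors (PNPs) and trunk neural crest (NC). The 9 genes were taken from a list of names: the DNA methyltransferases DNMT1, DNMT3A and DNMT3B, the catalytically inactive relative DNMT3L, the methylation reader UHRF1, the dioxygenases TET1, TET2 and TET3, and the DNA glycosylase TDG. They are 9 of the 58051 Ensembl genes listed in each of 47 bulk RNA-seq libraries, and each was matched to 1 gene identifier. Coordinates below are those of the whole gene in GRCh38.

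All libraries came from WA09 (H9), an established hESC line, carried through 3 independent differentiations (r1 to r3). Undifferentiated hESCs in mTESR1 were the start (t0). They were then held in N2B27 medium without vitamin A, with the WNT agonist CHIR-99021, FGF2, the retinoic acid receptor inverse agonist AGN193109 and the ROCK inhibitor Y-27632, which gave NMP-like cells at 36 h and, with repeated passaging in the same medium, the cultures of passage 1 (P1) to P10, all labelled neural progenitors. Each of these 12 time points had 3 libraries except P9, which had 2, and these 35 libraries are whole cultures. The other 12 are fractions of P5 and P8 cultures, 3 libraries each, in which epithelial (EPI, PNP) and mesenchymal (MES, NC) cells were enriched by selective detachment with TrypLE. All cells therefore descend from 1 line, the fractions are enriched rather than pure, and poly(A) RNA of a whole culture was measured, so that fewer cells of a type and less RNA per cell cannot be told apart.

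Methylation of cytosine in CpG dinucleotides is set by DNMT3A and DNMT3B and is copied to the new strand after replication by DNMT1, which UHRF1 brings to hemimethylated sites. TET enzymes oxidise methylcytosine stepwise, and TDG excises the most oxidised forms so that base excision repair can restore cytosine. Pluripotent human cells are known for high DNMT3B and TET1, and for a DNMT3B messenger that is spliced differently from that of most somatic cells. RNA levels say nothing directly of protein, enzyme activity or methylation, none of which is in these data.

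Library totals ranged from 13029491 to 64082859 expected counts, with a median of 47292229. Known hESC and NMP markers followed the labels of the early time points. The summed TPM (a level scaled to transcript length and library size) of 5 hESC markers (POU5F1, NANOG, TDGF1, ZFP42 and LEFTY2) had a mean of 2555 at t0, 1308 at 36 h and 4.24 at P5, and that of 6 NMP markers rose from 11.5 to 1510 between t0 and 36 h and was 769 at P1, where 6 NC markers had 61.2. Some libraries stood apart from others of their time point. P1 r1 had 1002 TPM of the hESC markers against 95.8 and 58.6 in r2 and r3, and P10 r1 had 427 TPM of 5 epithelial PNP markers (SOX2, CDX2, NKX1-2, CDH1 and EPCAM) against 7.35 and 5.24. This epithelial sum had a mean of 589 TPM at t0 and 459 TPM at P5, so it does not set PNPs apart from hESCs. The NMP sum was still 303 TPM at P5, but CDX2, which is also in the epithelial list, made up 261 TPM of it and FGF17 33.8 TPM. The other NMP markers, TBXT, CDX1, WNT8A and FST, had means of 4.34, 1.09, 0.613 and 2.23 TPM at P5. At 36 h these were 344, 137, 155 and 634 TPM. At P8 the fractions overlapped in marker content: the epithelial sum was 645, 279 and 185 TPM in EPI and 446, 182 and 51.8 TPM in MES. Markers of other lineages were also summed. Those of paraxial mesoderm (4 genes) reached 631 TPM in 36 h r3, and those of endoderm (3 genes) 33.3 TPM in the same library. Those of neurons (4 genes) lay between 76.4 and 462 TPM in all libraries. Most of the neuron sum was TUBB3 in the hESCs of t0 (means of 148 of 159 TPM) and at P5 (192 of 198 TPM), so it does not set neurons apart.

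Over the time course, 5 of the 9 genes changed: DNMT3B, TET1, TET2, TET3 and UHRF1. DNMT1, DNMT3A and TDG were tested and not called, and DNMT3L had too few counts to be tested. To be called, a gene had to reach an adjusted p under 1% in edgeR's quasi-likelihood test, differ by 2-fold or more, and average 100 or more normalized counts (counts scaled to a common library size). By the same rule 27.5% of the 21649 genes tested were called for any change over the time course. The fitted spans between the highest and the lowest time point, on the log2 scale, were 5.72 for DNMT3B, 3.28 for TET2, 2.07 for TET1, 1.83 for TET3 and 1.44 for UHRF1, against a median of 1.6 over all genes tested. DNMT3B therefore covered a 52.7-fold range, TET2 9.7-fold, TET1 4.2-fold, TET3 3.55-fold and UHRF1 2.71-fold. The adjusted p-values by edgeR were 7.7e-13, 3.2e-10, 4e-09, 4.9e-07 and 1.4e-05 in the order DNMT3B, TET2, TET1, TET3, UHRF1. DNMT3A spanned 0.64 (adjusted p = 0.005, under the fold minimum), DNMT1 0.42 (adjusted p = 0.14) and TDG 0.39 (adjusted p = 0.61). Without r3, UHRF1 was no longer called (adjusted p = 0.012).

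**Figure D1:**
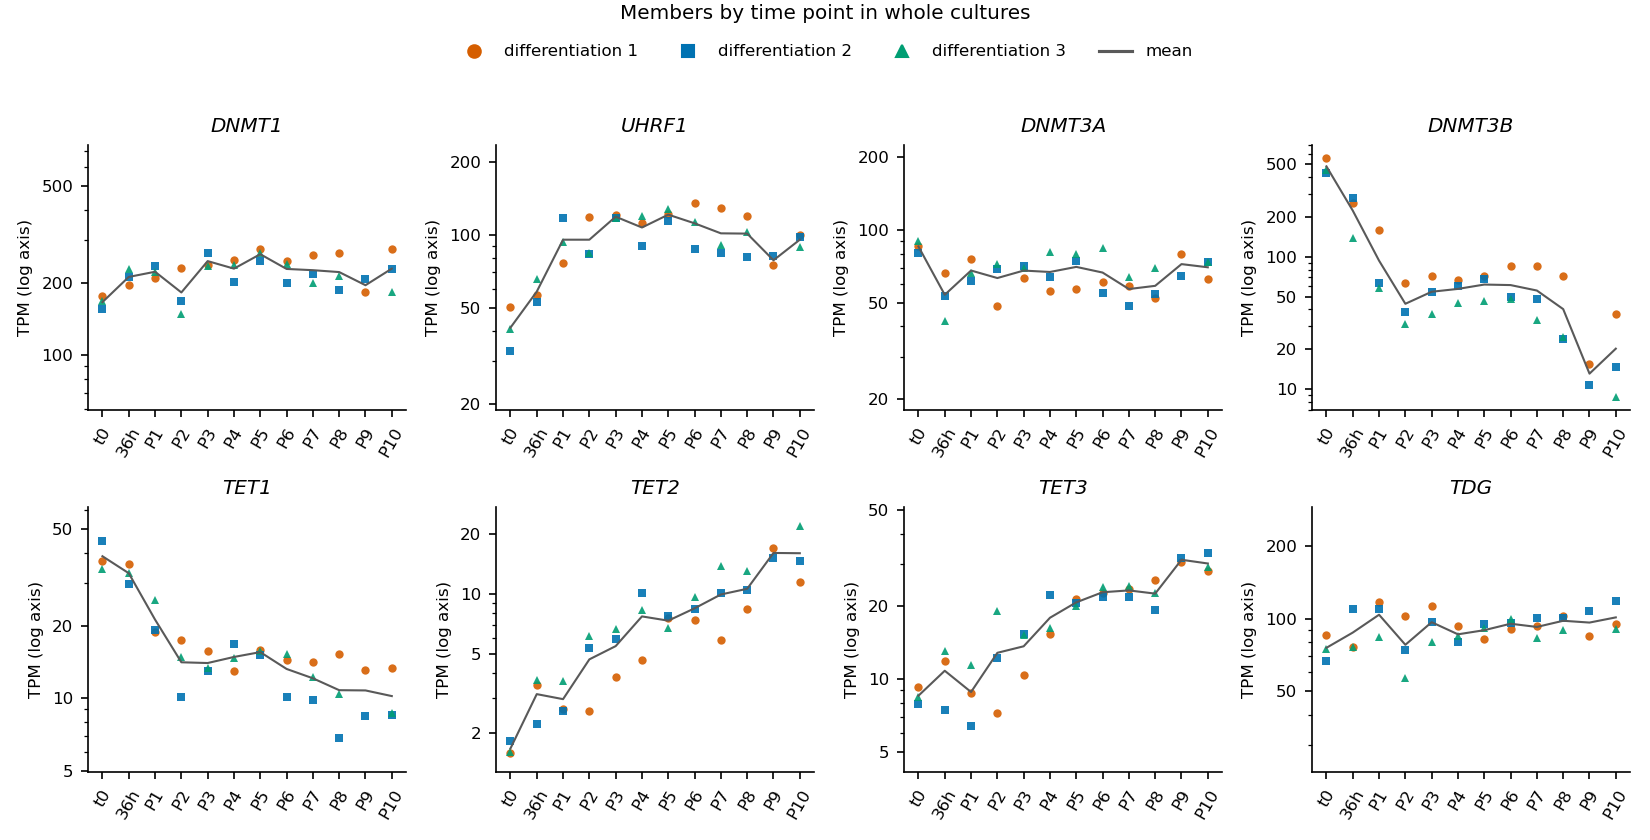
TPM (log axis) of the 8 detected genes at each time point in whole cultures, with 1 point per library, shape and colour by differentiation and a line through the means. DNMT3B runs from 433 to 562 TPM at t0 down to 8.69 to 37.3 TPM at P10, TET1 declines, TET2 and TET3 climb, and DNMT1 (148 to 276 TPM) and TDG (56.9 to 118 TPM) have the narrow ranges.

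DNMT1, the maintenance methyltransferase (chr19:10133345-10231286, minus strand), was at or above 148 TPM in every library. Its level was 176, 155 and 167 TPM in the t0 libraries, 195, 211 and 227 TPM at 36 h, and 276, 245 and 265 TPM at P5. Over all 47 libraries it lay between 148 TPM (P2 r3) and 298 TPM (P5 MES r3), a ratio of 2.02. The 3 P5 libraries were above the 3 t0 libraries in normalized counts, yet the difference of 0.42 ± 0.14 (log2, SE) had an adjusted p of 0.014 by edgeR and missed the call. A level per length for DNMT1 depends on the length assumed. The quantification gave DNMT1 a mean transcript length of 2392 to 3035 bases across libraries, well under the 5206 bases of the transcript with the longest coding part. Counted per kilobase of that transcript, DNMT1 had 3058 ± 82.6 normalized counts per kb at P5 and UHRF1 2758 ± 172 (SD, n = 3), whereas in TPM the means were 262 and 121.

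UHRF1 (chr19:4903080-4962154, plus strand), which binds hemimethylated CpGs and recruits DNMT1, was lowest in hESCs, and every later library was above the 3 of t0. It measured 50.4, 33.0 and 40.7 TPM at t0, 56.4, 52.9 and 65.6 TPM at 36 h, 76.5, 117 and 93.3 TPM at P1 and 122, 114 and 128 TPM at P5. The ranges of t0, 36 h and P5 did not overlap. UHRF1 rose 2.61-fold from t0 to P5 (log2 1.38 ± 0.18, adjusted p = 1.4e-06 by edgeR), with all 3 differentiations in that direction. Neither step alone was called: 36 h against t0 gave 0.47 ± 0.17 (adjusted p = 0.08), and P5 against 36 h gave 0.91 ± 0.18 (adjusted p = 0.00035, 1.88-fold, under the fold minimum). The latter was called with limma on TPM, at 1.05 and 1.06 with the 2 pseudocounts (adjusted p = 3.9e-05 with each). Later values were 120, 80.9 and 103 TPM at P8, 75.3 and 81.9 TPM at P9 and 100, 97.8 and 89.0 TPM at P10. The P9 libraries had low UHRF1, and P8 r2 was within their range. The same libraries had low summed TPM of 16 S phase and mitosis genes: 2033 and 2120 at P9, against 3409, 2247 and 2734 at P8 and 2998, 2458 and 2317 at P10. The part of proliferation in the UHRF1 level was not tested. The ratio of UHRF1 to DNMT1 TPM moved from 0.248 ± 0.0374 at t0 to 0.463 ± 0.0214 at P5 (SD, n = 3).

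UHRF1 has 3 promoter windows in the RefSeq table for GRCh38.p14, each from 250 bases before to 50 after an annotated start. In all, 19 windows matched 8 of the 9 genes. They were searched on both strands for the E2F-type letters TTTCCCGC and TTTGGCGC, the octamer ATTTGCAT, the GC box GGGGCGGGG and the CCAAT box, which occur in 1.63%, 0.652%, 1.77%, 15.7% and 34.6% of the 35116 windows in the table. The first E2F-type string matched in 1 of the 19, and the other E2F-type string and the octamer in none. That window of UHRF1, chr19:4909251-4909550 on the plus strand, is shown because UHRF1 rose and it holds the only E2F-type match, with capitals at a CCAAT box and at the E2F-type letters read on the minus strand.
UHRF1 promoter window: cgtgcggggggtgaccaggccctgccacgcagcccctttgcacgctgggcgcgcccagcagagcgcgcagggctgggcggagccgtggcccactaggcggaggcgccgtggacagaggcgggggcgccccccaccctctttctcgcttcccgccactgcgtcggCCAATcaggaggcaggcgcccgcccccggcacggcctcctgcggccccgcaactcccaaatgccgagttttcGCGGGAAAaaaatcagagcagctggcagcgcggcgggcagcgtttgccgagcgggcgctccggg
The window holds 36 CpGs, more than 87.3% of all windows. The match describes the letters only and was not tied to any measurement of binding.

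DNMT3A, a de novo methyltransferase (chr2:25227855-25342590, minus strand), was not called in any comparison. It measured 86.0, 80.2 and 90.5 TPM at t0, 66.5, 53.5 and 42.1 TPM at 36 h, and 56.9, 74.8 and 79.7 TPM at P5. The 36 h libraries were below the t0 libraries in all 3 differentiations, by 0.64 ± 0.15 on the log2 scale (adjusted p = 0.0068 by edgeR, 1.56-fold), a difference under the fold minimum. P5 against 36 h gave 0.22 ± 0.15 (adjusted p = 0.27). The mean transcript length reported for DNMT3A was 3521, 3358 and 3439 bases at t0 and 4179 and 4007 bases at P9, so the estimated mix of its 15 annotated transcripts was not constant, and no test of the mix was made.

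DNMT3B, the other de novo enzyme (chr20:32762385-32809356, plus strand), had the widest range of the 9. In hESCs it was the highest of them all at 562, 433 and 453 TPM. It measured 256, 277 and 138 TPM at 36 h, 159, 63.6 and 58.1 TPM at P1 and 63.6, 38.0 and 30.9 TPM at P2. From P3 to P7 the libraries lay between 33.4 TPM (P7 r3) and 85.8 TPM (P7 r1), a plateau within which r1 was the highest and r3 the lowest at each time point. P8 gave 71.8, 24.1 and 24.9 TPM, P9 15.5 and 10.7 TPM, and P10 37.3, 14.7 and 8.69 TPM.

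The first fall of DNMT3B came within 36 h. At 36 h it was 2.32-fold lower than at t0 (log2 -1.21 ± 0.26, adjusted p = 0.0029 by edgeR), lower in 3 of 3 differentiations and with ranges apart. Of all genes tested, 1.39% were called lower and 1.33% higher in that comparison, and no other of the 9 was called. The call was lost without the replicate block (adjusted p = 0.13), without r2 (adjusted p = 0.032) or without r3 (adjusted p = 0.22, log2 -0.90), and when only t0 and 36 h were fitted (adjusted p = 0.033). The number of all genes called by edgeR here, 588, moved as well. It was 442 without the block, 891 without r1, 91 without r2, 88 without r3 and 147 with only these time points. The 36 h library with the lowest DNMT3B, r3 at 138 TPM, also had the lowest hESC marker sum, 741 TPM against 1847 and 1337, and the highest NMP marker sum, 2075 TPM against 817 and 1640, and it held the most paraxial mesoderm markers, 631 TPM against 8.81 and 132. How far along each culture was, and its part in the DNMT3B level, was not tested.

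From 36 h to P5, DNMT3B fell a further 4.18-fold (log2 -2.07 ± 0.26, adjusted p = 3.8e-06 by edgeR). TET1 also fell and TET2 rose between these time points, so that 3 of the 9 were called, 2 lower and 1 higher, beside 4.81% of all genes lower and 3.55% higher. Against t0, DNMT3B at P5 was 9.7-fold lower (log2 -3.28 ± 0.28, adjusted p = 4.2e-09). Over this whole interval 5 of the 9 were called, DNMT3B and TET1 lower and UHRF1, TET2 and TET3 higher, beside 8.29% of all genes lower and 5.96% higher. At P1, DNMT3B was highest in the library that kept hESC markers: r1 with 159 TPM of DNMT3B had 1002 TPM of those markers.

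The transcript length reported for DNMT3B also differed between time points, which is given as a description with no test. For each gene the quantification reports the mean length of its transcripts, weighted by their estimated share. For DNMT3B this was 4303, 4300 and 4294 bases at t0, 4197, 4239 and 4165 at 36 h and 4109, 4056 and 4046 at P1. From P2 on, every library lay between 4004 and 4071 bases. The 3 t0 libraries were thus above all others, and those at 36 h came next. From P2 on there was no steady order by passage, although some passages were apart. P8 lay at 4047 to 4061 bases, P9 at 4005 and 4015 and P10 at 4004 to 4066. All 6 annotated DNMT3B transcripts were matched to the tables, of 4336 bases (DNMT3B-202), 4255 (DNMT3B-201), 4237 (DNMT3B-204), 4048 (DNMT3B-203), 2674 (DNMT3B-205) and 2315 (DNMT3B-206). A mean above 4255 bases can be reached only with DNMT3B-202, whose share at t0 was therefore at least 58.8%, 55.8% and 48.6%. No such bound exists for the later libraries, since several mixtures give the same mean. A mean close to 4048 bases is what DNMT3B-203 alone would give, and a mixture of long and short transcripts could give it too. Per-transcript values were not analysed here, and these lengths are estimates from 75-base single-end reads.

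**Figure D2:**
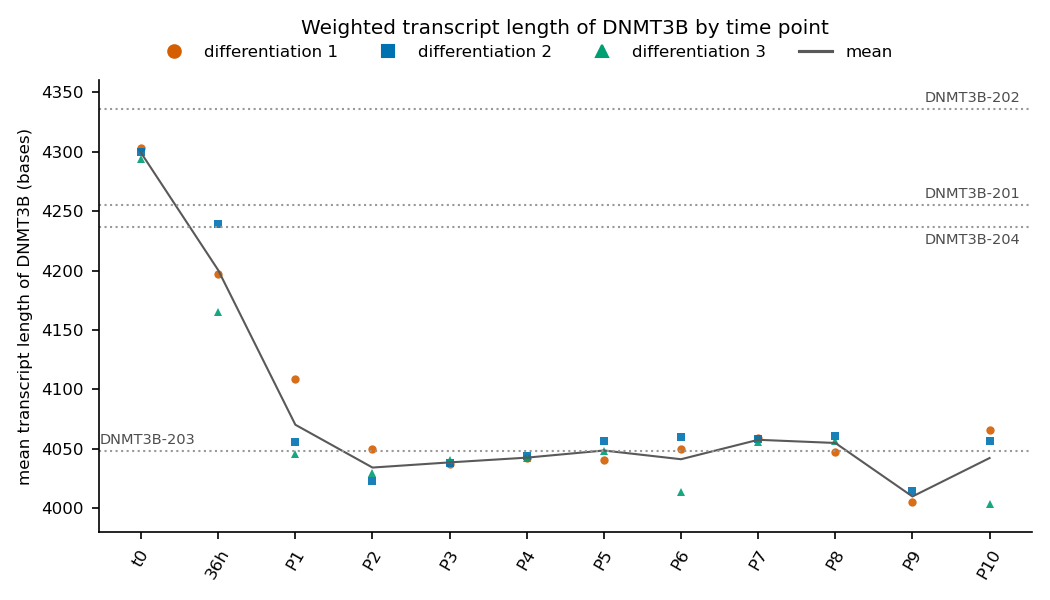
Weighted mean transcript length of DNMT3B in bases at each time point in whole cultures, with 1 point per library, a line through the means and dotted lines at the lengths of 4 annotated transcripts. The t0 libraries (4294 to 4303 bases) lie between DNMT3B-202 and DNMT3B-201, and from P2 on the libraries lie near DNMT3B-203 (4048 bases). The vertical axis does not start at 0.

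The 3 coding exons that distinguish DNMT3B-202 from DNMT3B-204 and DNMT3B-204 from DNMT3B-203 are shown because the bound and the later lengths turn on them, in GRCh38 on the plus strand of chromosome 20. Exon 10 (chr20:32793536-32793595, 60 bases) is held by DNMT3B-202 and by none of the other 5. Exons 21 (chr20:32805338-32805407, 70 bases) and 22 (chr20:32806209-32806327, 119 bases) are held by DNMT3B-202, DNMT3B-201 and DNMT3B-204 and lacked by DNMT3B-203, DNMT3B-205 and DNMT3B-206. Exons 21 and 22 lie in the part that codes for the catalytic domain.
DNMT3B exon 10: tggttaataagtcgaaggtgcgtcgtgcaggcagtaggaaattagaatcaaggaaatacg
DNMT3B exon 21: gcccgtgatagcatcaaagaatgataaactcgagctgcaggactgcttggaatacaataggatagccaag
DNMT3B exon 22: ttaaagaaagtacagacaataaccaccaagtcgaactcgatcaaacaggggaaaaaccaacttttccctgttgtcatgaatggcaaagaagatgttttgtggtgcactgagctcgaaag
The bound on DNMT3B-202 is therefore a bound on messengers with exon 10 at t0. Reads over these exons were not counted, so their use at later times is known only through the mean length.

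Late passages brought a second fall of DNMT3B. P9 and P10 together were 2.55-fold lower than P8 (log2 -1.35 ± 0.23, adjusted p = 0.0016 by edgeR), the only call among the 9, beside 0.467% of all genes lower and 0.781% higher. The ranges overlapped, because P10 r1 at 37.3 TPM was above P8 r2 and r3 at 24.1 and 24.9 TPM. Leaving out P10 r1 gave -1.52 ± 0.22 (adjusted p = 3.5e-05). The call was lost without the replicate block (adjusted p = 0.082), without r2 (adjusted p = 0.078), without r3 (adjusted p = 0.099) and when only these 3 time points were fitted (adjusted p = 0.22). The number of all genes called by edgeR in this comparison, 270, moved as well: it was 1001 without P10 r1, 31 without the block, and 0 without r2, without r3 or with only these time points, and DESeq2 called 709. From P5 to P8 the 9 genes had no call, beside 0.00462% of all genes higher and 0.00462% lower. The largest difference there was that of DNMT3B, -0.73 ± 0.26 (adjusted p = 0.19), and the DESeq2 alternative called none of the 9 either. In that comparison 2873 genes had an unadjusted p under 0.05 by edgeR and DESeq2 called 145.

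In the late libraries DNMT3B went with the epithelial PNP sum in part. This sum was 695, 253 and 162 TPM at P8, 16.5 and 16.7 TPM at P9 and 427, 7.35 and 5.24 TPM at P10. At P8 and at P10 r1 was the highest, as it was for DNMT3B. The order did not match for P8 r2 and r3, with 24.1 and 24.9 TPM of DNMT3B, or at P9. Most of the sum at P8 was SOX2 and CDX2, with means of 184 and 174 TPM. CDH1 had means of 0.73, 0.395 and 0.89 TPM at P8, P9 and P10, and EPCAM 5.8, 1.36 and 3.09 TPM. The summed TPM of the 6 NC markers ran the other way. It was 107, 340 and 668 TPM at P8, 982 and 883 TPM at P9 and 184, 776 and 836 TPM at P10. The rise after P8 lay in SNAI2 (means of 82.5, 358 and 230 TPM at P8, P9 and P10) and TWIST1 (80.2, 494 and 322 TPM). The means of SOX10, SOX9, TFAP2B and FOXD3 were lower at P9 and at P10 than at P8. The part of the epithelial share in the DNMT3B level was not tested.

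**Figure D3:**
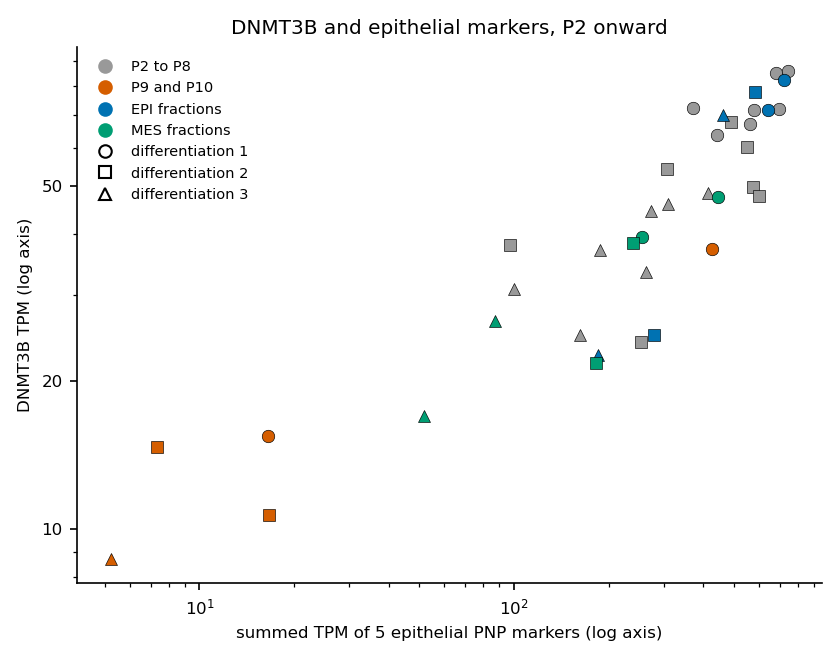
DNMT3B TPM against the summed TPM of 5 epithelial PNP markers (both axes log) in each library from P2 onward, coloured by kind of library, with shape by differentiation. The 4 libraries at 5.24 to 16.7 TPM of the markers have 8.69 to 15.5 TPM of DNMT3B, and P10 r1, at 427 TPM of the markers, has 37.3 TPM.

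DNMT3L (chr21:44246339-44262216, minus strand), a cofactor of de novo methylation that is known mainly from germ cells, was at 0 in 43 of the 47 libraries. The other 4 held 9 expected counts between them, and the highest, P1 r3, held 5. The highest level was 0.16 TPM, in P8 MES r2. These counts are at or near the floor of 3 counts per library, so that DNMT3L was not detectable at this depth in most libraries and no fold change is given.

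The make-up of the summed DNMT RNA differed accordingly, within the limit that the TPM of DNMT1 depends on the length assumed. DNMT3B made up 65.6 ± 2.35% of the summed DNMT1, DNMT3A and DNMT3B TPM at t0, 44.8 ± 9.52% at 36 h, 15.6 ± 3.34% at P5 and 5.95 ± 3.52% at P10 (SD, n = 3). DNMT1 went from 22.7 ± 1.18% to 66.4 ± 2.77% between t0 and P5. The sum itself was 734 ± 80.7 TPM at t0, 489 ± 71.2 TPM at 36 h, 394 ± 9.10 TPM at P5 and 319 ± 55 TPM at P10. The ratio of DNMT3B to DNMT3A TPM was 6.54, 5.4 and 5.00 in the t0 libraries, 1.26, 0.905 and 0.578 at P5, and 0.593, 0.199 and 0.118 at P10. DNMT3B was thus the more abundant of the pair in every t0 library, and DNMT3A in every P9 and P10 library.

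**Figure D4:**
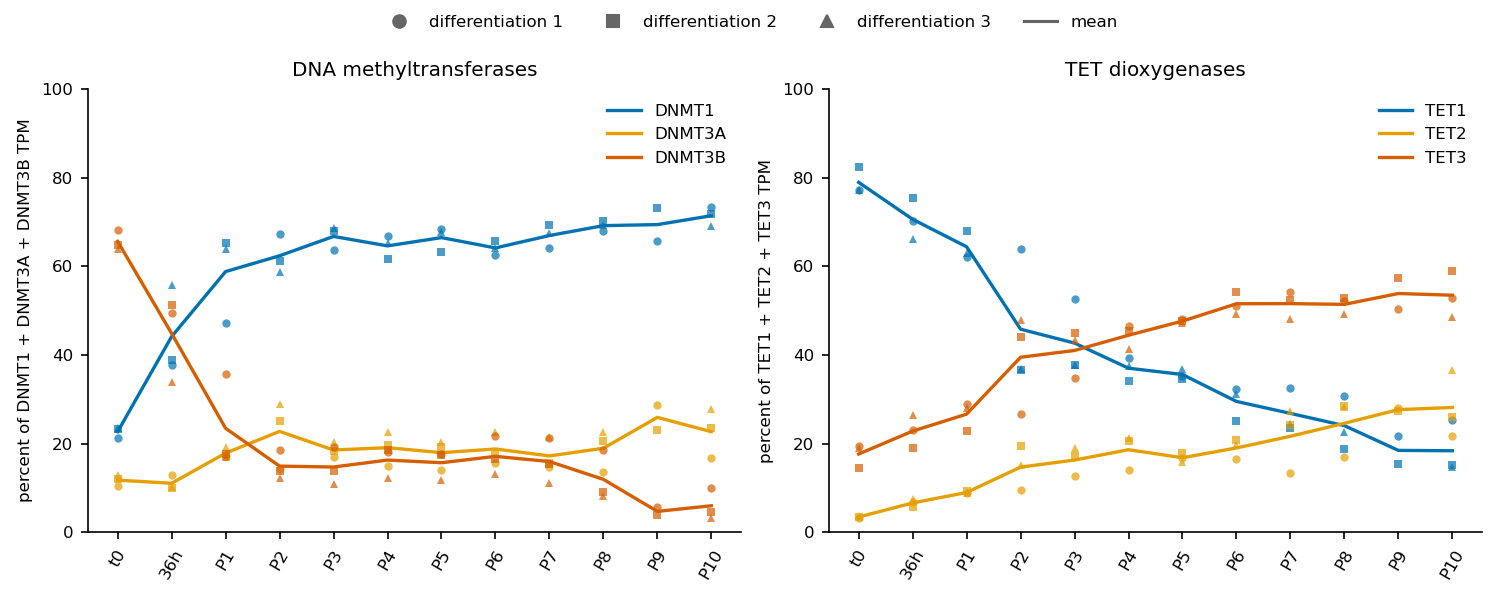
Share in percent of each DNA methyltransferase in the summed TPM of DNMT1, DNMT3A and DNMT3B (left) and of each TET gene in the summed TPM of the 3 TET genes (right), by time point in whole cultures, with 1 point per library, shape by differentiation and lines through the means. DNMT3B drops from 65.6% at t0 to 5.95% at P10, and TET1 from 78.9% to 18.4% while TET3 reaches 53.5%.

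TET1 (chr10:68560656-68694482, plus strand), the TET gene known for pluripotent cells, fell between t0 and P5. It measured 36.9, 44.9 and 34.3 TPM at t0 and 36.1, 29.8 and 32.9 TPM at 36 h, a difference of -0.29 ± 0.20 (log2, adjusted p = 0.38 by edgeR). P1 gave 18.8, 19.1 and 25.6 TPM and P5 15.8, 15.1 and 15.7 TPM, and every P1 library was below every 36 h library. From 36 h to P5, TET1 fell 2.36-fold (log2 -1.24 ± 0.20, adjusted p = 6.4e-05), and against t0 2.89-fold (log2 -1.53 ± 0.20, adjusted p = 2.2e-06). The first of these calls was lost without r3 (adjusted p = 0.011). P8 values of 15.2, 6.83 and 10.4 TPM and P10 values of 13.4, 8.54 and 8.72 TPM overlapped. TET1 has 1 annotated transcript, so its length was 9288 bases in all libraries and no change of transcript mix enters its TPM.

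TET2 (chr4:105145875-105279816, plus strand), whose protein lacks the CXXC DNA-binding domain of its relatives, was the lowest of the detected genes in hESCs and rose. Its values were 1.58, 1.81 and 1.6 TPM at t0, 3.48, 2.21 and 3.68 TPM at 36 h and 7.52, 7.74 and 6.70 TPM at P5. These 3 groups did not overlap. The first step of 0.87 ± 0.21 (log2, adjusted p = 0.0084 by edgeR, 1.83-fold) was under the fold minimum. From 36 h to P5, TET2 rose 2.06-fold (1.04 ± 0.21, adjusted p = 0.00059), just past that minimum, and the call was lost without the replicate block (adjusted p = 0.013), without r2 (adjusted p = 0.036), without r3 (adjusted p = 0.011) and when only these time points were fitted (adjusted p = 0.011). Against t0, P5 was 3.77-fold higher (1.91 ± 0.22, adjusted p = 2.6e-07). Later libraries reached 8.38, 10.4 and 13.0 TPM at P8, 17.0 and 15.1 TPM at P9 and 11.5, 14.6 and 21.9 TPM at P10. P9 and P10 against P8 gave 0.68 ± 0.19 (adjusted p = 0.028), with overlapping ranges and no call. Within P8 and within P10 TET2 was lowest in r1, the library with the highest epithelial sum, and the part of that share was not tested. The antisense gene TET2-AS1, which lies within TET2, had at most 1 expected count in any library.

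TET3 (chr2:73986404-74108176, plus strand), the third of the family, also rose. It measured 9.31, 7.86 and 8.44 TPM at t0, 11.9, 7.48 and 13.1 TPM at 36 h and 21.5, 20.7 and 20.1 TPM at P5. The t0 and 36 h ranges overlapped and the P5 libraries were above both. TET3 rose 2.15-fold from t0 to P5 (log2 1.11 ± 0.22, adjusted p = 0.00022 by edgeR), a call that was lost without r2 (adjusted p = 0.011). P5 against 36 h gave 0.82 ± 0.22 (adjusted p = 0.0054, 1.76-fold, under the fold minimum). At P9 the values were 30.6 and 31.7 TPM and at P10 27.9, 33.3 and 29 TPM, all above the 25.8, 19.3 and 22.6 TPM of P8, yet this difference of 0.52 ± 0.20 was not called (adjusted p = 0.089).

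The TET genes thus exchanged ranks. TET1 made up 78.9 ± 2.88% of the summed TET TPM at t0, 35.6 ± 1.20% at P5 and 18.4 ± 6.07% at P10 (SD, n = 3). TET3 went from 17.6 ± 2.81% to 47.6 ± 0.326% and 53.5 ± 5.20%, and TET2 from 3.41 ± 0.173% to 16.8 ± 1.01% and 28.2 ± 7.70%. The sum was 48.9 ± 5.20 TPM at t0, 33.0 ± 6.80 TPM at P1, 43.6 ± 1.14 TPM at P5 and 56.3 ± 3.39 TPM at P10. At P2 the differentiations were not in step: TET1 still made up 63.9% in r1 and 36.6% and 36.9% in r2 and r3.

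TDG (chr12:103965804-103988874, plus strand), the glycosylase that removes formyl- and carboxylcytosine, gave no call in any comparison. It measured 85.9, 66.6 and 74.7 TPM at t0, 82.3, 95 and 91.4 TPM at P5 and 95.1, 118 and 90.4 TPM at P10. The lowest library was P2 r3 at 56.9 TPM and the highest P10 r2 at 118 TPM. P5 against t0 differed by 0.06 ± 0.19 (log2, adjusted p = 0.81 by edgeR). The processed pseudogene TDGP1 held at most 10.65 expected counts in a library, so that few reads were assigned to it.

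Ordered by mean TPM, the genes at t0 ran DNMT3B (483), DNMT1 (166), DNMT3A (85.6), TDG (75.7), UHRF1 (41.3), TET1 (38.7), TET3 (8.54) and TET2 (1.66). DNMT3A and TDG overlapped there, as did UHRF1 and TET1. At P5 the order was DNMT1 (262), UHRF1 (121), TDG (89.6), DNMT3A (70.5), DNMT3B (61.7), TET3 (20.8), TET1 (15.5) and TET2 (7.32), with DNMT3A and DNMT3B the only neighbours that overlapped. At P10 it was DNMT1 (229), TDG (101), UHRF1 (95.6), DNMT3A (70.2), TET3 (30.0), DNMT3B (20.2), TET2 (16) and TET1 (10.2). There TDG overlapped UHRF1, and TET3, DNMT3B, TET2 and TET1 each overlapped the next.

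The fractions asked whether epithelial PNPs and mesenchymal NC cells of the same differentiation and passage differ in these genes. At P5 DNMT3B was lower in MES, at 39.4, 38.3 and 26.6 TPM, than in EPI, at 82.4, 77.8 and 69.8 TPM. The ranges were apart and each of 3 differentiations gave the same direction. With edgeR the difference was -1.15 ± 0.28 on the log2 scale (adjusted p = 0.045), which is not under 1%, and so it was not called. None of the 9 was called, nor was any of the 18924 genes tested (0% higher and 0% lower), although 4862 had an unadjusted p under 0.05 and 1451 an adjusted p under 5%. DESeq2 called 674 genes, DNMT3B among them (adjusted p = 0.0013). A block for each differentiation and passage, here called the dish, was added after the data were seen. The labels name no dish, so that both fractions shared a dish is assumed. With this block 328 genes were called, with DNMT3B at -1.14 ± 0.09 (adjusted p = 0.0036). The call for DNMT3B at P5 thus differed between fits, while its size lay between -1.24 and -1.03 in all 13 alternative fits.

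DNMT3A differed in the opposite direction at P5. It measured 52.1, 66.0 and 75.8 TPM in EPI and 74.9, 92.6 and 96.5 TPM in MES, higher in MES in 3 of 3 differentiations, by 0.51 ± 0.09 (log2, adjusted p = 0.023 by edgeR, 1.43-fold). The ratio of DNMT3B to DNMT3A TPM was 1.58, 1.18 and 0.920 in EPI and 0.526, 0.413 and 0.276 in MES, so that it was lower in MES in each differentiation. TET2 was 6.02, 7.29 and 6.96 TPM in EPI and 8.45, 9.80 and 8.25 TPM in MES (0.32 ± 0.14, adjusted p = 0.20). For the other 5 tested genes the differences were between -0.09 and 0.11. The NC marker sum was 65.6, 125 and 222 TPM in these EPI libraries and 413, 383 and 508 TPM in MES, and the S phase and mitosis sum was 3546 to 3587 TPM in EPI and 3198 to 3226 TPM in MES. Their part in these differences was not tested.

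**Figure D5:**
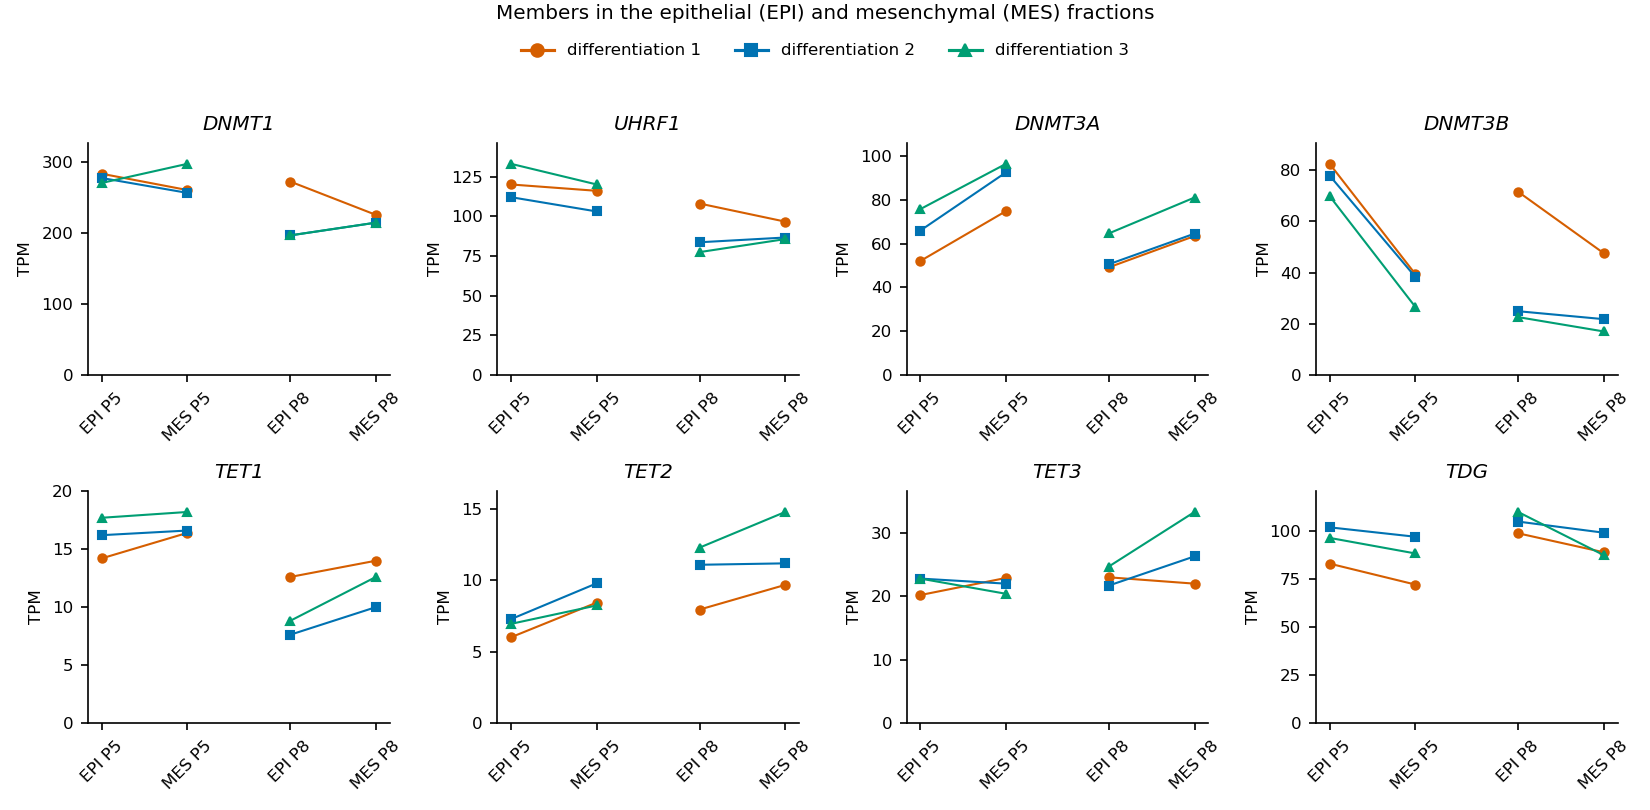
TPM of the 8 detected genes in the EPI and MES fractions at P5 and P8, with 1 point per library and a line joining the fractions of 1 differentiation. At P5 DNMT3B is at 69.8 to 82.4 TPM in EPI and 26.6 to 39.4 TPM in MES, and at P8 the fractions of r2 and r3 lie between 17.0 and 24.9 TPM while r1 is at 71.5 and 47.5 TPM.

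At P8 the same contrast was smaller in value. DNMT3B measured 71.5, 24.9 and 22.6 TPM in EPI and 47.5, 21.8 and 17.0 TPM in MES, lower in MES within each differentiation, with overlapping ranges (-0.45 ± 0.28, adjusted p = 0.54 by edgeR). DNMT3A gave 0.34 ± 0.09 (adjusted p = 0.28). Again 0% of genes were called in either direction, with 2275 at an unadjusted p under 0.05 by edgeR and 55 called by DESeq2, none of them among the 9. The difference between the 2 contrasts, tested as an interaction, was 0.69 ± 0.39 for DNMT3B (adjusted p = 0.85), and 0% of genes were called there in either direction, with 1125 at an unadjusted p under 0.05 and 1 called by DESeq2.

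Within the EPI fractions, P8 against P5 gave -1.09 ± 0.28 for DNMT3B (adjusted p = 0.047 by edgeR), -0.69 ± 0.15 for TET1 (adjusted p = 0.034) and 0.64 ± 0.14 for TET2 (adjusted p = 0.034), and 0 of the 9 were called, beside 0.233% of genes higher and 0.0317% lower. Without r1, whose P8 EPI library kept 71.5 TPM, DNMT3B was called at -1.53 ± 0.11 (adjusted p = 0.0037), and DESeq2 also called it (adjusted p = 0.0019). TET1 was 14.2, 16.2 and 17.7 TPM at P5 and 12.6, 7.62 and 8.82 TPM at P8, with ranges apart. In these EPI libraries the mean NC marker sum was 137 TPM at P5 and 363 TPM at P8. The mean epithelial PNP sum was 590 and 370 TPM, and that of S phase and mitosis genes 3567 and 2599 TPM. Their part in the differences was not tested. In the MES fractions DNMT3B differed by -0.39 ± 0.28 (adjusted p = 0.38 by edgeR), and 0 of the 9 were called, beside 0.661% of genes higher and 0.122% lower. TET1 in MES was 16.4, 16.6 and 18.2 TPM at P5 and 14.0, 10.0 and 12.6 TPM at P8, with ranges apart. TET2 in MES was 8.45, 9.80 and 8.25 TPM at P5 and 9.69, 11.2 and 14.8 TPM at P8. It was higher at P8 in each differentiation, with overlapping ranges. The mean NC, epithelial PNP and S phase and mitosis sums of MES were 435, 194 and 3213 TPM at P5. At P8 they were 527, 227 and 2560 TPM. In MES 5688 genes had an unadjusted p under 0.05 by edgeR and in EPI 5863, and DESeq2 called 749 and 606. The numbers of all genes called by edgeR, 148 in MES and 50 in EPI, moved as well. They were 202 and 380 without r1, 1 and 0 without the block, and 0 in both without r2 or without r3.

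Other genes of the pathway were counted from lists, and beyond the genes with the lowest p-values, members of small counts are named after their values were seen. Of 14 other genes of the methylation machinery, 2 changed over the time course, beside 27.5% of all genes, and the median span was 0.81 against 1.6 for all genes. CDCA7L, a relative of the HELLS partner CDCA7, spanned 2.92 (adjusted p = 1.2e-06 by edgeR) with a mean of 141 TPM at t0, 48.7 TPM at P5 and 35.2 TPM at P10, and it fell from t0 to P5 by 1.73 on the log2 scale. The other was HELLS, a chromatin remodeller needed for methylation of repeats. Of 16 tested genes for other demethylation routes and base repair, out of 18 listed, 3 changed, beside 27.5% of all genes and with a median span of 1.04 against 1.6, among them UNG, the uracil DNA glycosylase (2.22, adjusted p = 3.5e-05), and GADD45A, a stress-induced gene linked to repair-coupled demethylation (3.06, adjusted p = 8.3e-05). UNG had a mean of 164 TPM at t0 and 66.4 TPM at P10, and GADD45A 14.5 TPM and 135 TPM. The remaining gene was PARP1, with 1.12.

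Methyl-CpG readers changed in 3 of 7, beside 27.5% of all genes, with a median span of 0.96 against 1.6 for all genes. MBD2, a reader that recruits the NuRD complex, spanned 2.02 (adjusted p = 1.8e-09 by edgeR), from a mean of 23.6 TPM at t0 to 74.7 TPM at P10. ZBTB38 was also among them, at 1.81. The median P5 against t0 difference of the 7 readers was 0.66, against -0.04 for all genes. None of them was called in that comparison alone, beside 5.96% of all genes higher and 8.29% lower. Of 13 genes of methyl donor and cofactor supply, 5 changed, beside 27.5% of all genes, and the median span was 0.77 against 1.6. Among them were IDH1, which makes the TET cosubstrate 2-oxoglutarate (2.26, adjusted p = 2.8e-07 by edgeR), and MTHFD1 of folate metabolism (1.5, adjusted p = 9.2e-07). Both had lower means at P5 than at t0, IDH1 with 184 and 449 TPM and MTHFD1 with 182 and 293 TPM. IDH1 was the only gene of the 13 called in P5 against t0 (-1.47 ± 0.28, adjusted p = 0.00018 by edgeR), beside 8.29% of all genes lower and 5.96% higher. AHCY (1.12) and IDH2 (1.21) also changed.

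Of 16 S phase and mitosis genes 6 changed, beside 27.5% of all genes, with a median span of 0.96 against 1.6 for all genes. CCNE2, a cyclin of the G1/S transition, spanned 3.26 (adjusted p = 1.1e-09 by edgeR) and rose from a mean of 4.93 TPM at t0 to 27.1 TPM at P5, whereas BUB1, a mitotic checkpoint kinase, had 209 and 115 TPM and MCM2, a subunit of the replicative helicase, 112 and 217 TPM. Germline genes, which promoter methylation is known to keep silent, were low: 6 of 16 could be tested. None was called over the time course, although DAZL, TEX14 and PIWIL2 had adjusted p-values of 3.1e-06, 5e-06 and 0.00091 by edgeR and missed only the mean count minimum. In P5 against t0, where that mean is taken over the compared libraries, 1 of the 6 was called, DAZL, which fell (adjusted p = 7.2e-05), beside 8.29% of all genes lower. The sum of all 16 had a mean of 6.78 TPM at t0, 0.487 TPM at P5 and 0.923 TPM at P10. DAZL, a germ cell RNA-binding protein, made up most of this at t0 with a mean of 4.72 TPM and was at 0 TPM in the 3 P5 libraries.

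In the fraction comparisons no gene of these pathway lists was called by edgeR. Beside this, 0% of all genes were called between MES and EPI at P5 or P8. For P8 against P5, 0.233% were higher and 0.0317% lower in EPI, and 0.661% higher and 0.122% lower in MES. The 2 genes with the lowest p-values are given for each list other than the germline genes, whose adjusted p-values were at least 0.056. In the methyl donor list they were IDH1 (-0.64 ± 0.07, adjusted p = 0.0054, under the fold minimum) and SHMT2 (-0.43 ± 0.10, adjusted p = 0.037), both in MES at P8 against P5, and IDH1 in EPI was -0.53 ± 0.07 (adjusted p = 0.011). In the base repair list they were NEIL1, a DNA glycosylase, in MES at P8 against P5 (1.28 ± 0.17, adjusted p = 0.007, under the mean count minimum) and UNG in MES against EPI at P5 (-0.74 ± 0.10, adjusted p = 0.014). The readers were MBD2 in EPI (0.64 ± 0.10, adjusted p = 0.015) and ZBTB4 in MES (0.64 ± 0.11, adjusted p = 0.013), the S phase genes the helicase subunits MCM6 (-0.62 ± 0.10, adjusted p = 0.018) and MCM5 (-0.54 ± 0.10, adjusted p = 0.022) in EPI, and the other methylation machinery TRIM28 (-0.27 ± 0.07, adjusted p = 0.04) and HELLS (-0.58 ± 0.15, adjusted p = 0.049) in EPI, all at P8 against P5.

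The genes whose pattern was most like that of each member were found by the Pearson correlation of mean log2 CPM (counts scaled to library size) over the 16 conditions, among the 13297 genes that averaged 100 or more normalized counts. The conditions share differentiations and one dominant change from t0 onward, so these values describe likeness only. DNMT3B was most like KYAT1 (r = 0.988), HERC5 (0.987) and NLRP2 (0.986). TET1 was most like the transcript AC012146.1 (0.981), POU5F1 (0.976), the pluripotency factor OCT4, and RBPMS2 (0.973). For TET2 the nearest were CHD3 (0.989), CRIP2 (0.987) and PRDM2 (0.983), for TET3 STARD9 (0.98), MRTFB (0.977) and LPAR1 (0.976), and for UHRF1 MMACHC (0.982), DNAJC9 (0.972) and FANCC (0.97). DNMT1, with little variation to follow, was nearest to SMC1A (0.942), SMC4 (0.919) and NUP188 (0.912). DNMT3A and TDG had the lowest likeness, with 0.879 for ZNF512B and 0.811 for MAD2L1BP as the highest.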

How the data were processed

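Poly(A) RNA of 47 cultures or fractions was sequenced. Per the submitters' processing notes, reads were trimmed with cutadapt 1.16, aligned with STAR 2.5.2b to GRCh38 and quantified with RSEM 1.3.0. The annotation release, strand setting and filters were not given in the sources used here. For each library the authors deposited a table of expected counts, TPM and mean transcript length in bases per Ensembl gene, and 3 differentiations per group (2 at P9) serve as replicates.

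Symbols came from GENCODE 29, which named 57447 of the 58051 genes. Of 35110 single-transcript genes, 34764 (99%) had the annotated length in the tables. Expected counts, 9.33% of which were not whole, were rounded. Genes passing filterByExpr (21649 in whole cultures, 18924 in fractions) were tested with edgeR 4.0.16 in R 4.3.3 by the quasi-likelihood test, with TMM scaling, Benjamini-Hochberg adjustment and the replicate number as a block, separately for whole cultures and fractions. A call needed an adjusted p under 1%, a fold of 2 and a mean of 100 normalized counts. The block rests on the labels, where a number marks one differentiation. Deviations of same-numbered libraries correlated at 0.6 to 0.69 (EPI and MES, P5), 0.76 to 0.8 (EPI and MES, P8), 0.1 to 0.44 (P5 and P8), -0.1 to 0.44 (P8 and P10), 0.09 to 0.15 (36 h and P5), -0.05 to 0.03 (t0 and P5) and -0.09 to 0.06 (t0 and 36 h).

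Alternatives were no block, DESeq2 1.42.0, DESeq2 size factors, other count filters, other sets of libraries, limma 3.58.1 on log2(TPM + 0.5) or log2(TPM + 0.1), leaving out replicates and other call thresholds. A block by dish (differentiation and passage, as no dish is named in the labels) and a level per kb were chosen after seeing the data. That level used the transcript with the longest coding part. The test was tested on simulated data for P5 against t0 (200 changed genes of 20300): 81% were recovered at a log2 change of 1.5 and 96% at 3, with 0 false calls. The members and lists were chosen with earlier results of these data known. All 9 members were named, and from each list the 3 genes with the lowest p over the time course and 2 in the fractions. Some genes that this rule names are not reported here. Similar patterns were ranked by Pearson correlation over 16 conditions. Libraries were not subsampled to equal depth.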

Additional observations from a re-analysis of the deposited data

How the results depend on the processing

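Of 15 called values, 9 kept their call and none reversed under 15 to 16 alternatives per comparison. The number of the 9 genes called for 36 h against t0 (1) was 0 without the replicate block, 0 with only the compared groups, 3 with no fold minimum and 0 to 1 leaving out a replicate. For P5 against 36 h (3) it was 5 with no fold minimum and 1 to 3 leaving out a replicate. For P9 and P10 against P8 (1) it was 0 without the block, 0 with only the compared groups and 0 to 1 leaving out a replicate. For MES against EPI at P5 (0) it was 1 with DESeq2, with only the compared groups, at 5% and with the dish as block, and for EPI at P8 against P5 (0) it was 1 with DESeq2 and at 5%, and 0 to 1 leaving out a replicate. P5 against t0 and any change gave 4 to 5 leaving out a replicate. Without the block 3 calls were lost: DNMT3B at 36 h against t0 (-1.17), DNMT3B at P9 and P10 against P8 (-1.27) and TET2 at P5 against 36 h (1.03). DNMT3B in MES against EPI at P5, called neither with nor without it, was -1.12. UHRF1 at P5 against 36 h gained a call with limma on TPM. Counts of all genes called by edgeR also fell without r2 and without r3. They were 765 and 958 for P5 against 36 h (1809 in the main fit) and 1928 and 2150 for P5 against t0 (3084). For any change they were 2657 and 3170 (5957). The causes were not tested.

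Among 73 values not called, 28 alternatives reversed the sign, with sizes up to 0.21 and adjusted p-values of at least 0.59. With limma on TPM, at either pseudocount, TDG was 0.05 (P5 against 36 h) and -0.03 (P9 and P10 against P8). DNMT1 was -0.08 (P9 and P10 against P8), -0.03 (MES against EPI at P5) and -0.01 (P8), TET3 -0.01 (P5 fractions) and UHRF1 0.01 (P8 fractions). Leaving out a replicate, TDG ranged from -0.13 to 0.37 (36 h against t0), -0.22 to 0.11 (P5 against 36 h), -0.02 to 0.19 (P5 against t0) and -0.11 to 0.14 (P9 and P10 against P8). In the last comparison DNMT1 ranged from -0.21 to 0.18, TET1 from -0.06 to 0.1 (-0.04 without P10 r1) and UHRF1 from -0.36 to 0.01. In the fractions DNMT1 ranged from -0.02 to 0.07 (P5) and -0.02 to 0.16 (P8), TET3 from -0.05 to 0.07 (P5), UHRF1 from -0.08 to 0.04 (P8) and -0.01 to 0.12 (P8 against P5 difference), and DNMT3A from -0.12 to 0.04 (EPI, P8 against P5). DNMT3L could not be tested at this depth.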
